A study of Mus musculus with 6 samples.

Results

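The Notch receptors, their ligands and a pair of target genes were followed in mouse tumours: Notch1, Notch2, Notch3 and Notch4; Jag1, Jag2, Dll1 and Dll4; and Hes1 and Hey1. They were chosen by symbol, and all 10 were found among the 21671 named genes of the count table. In Notch signalling a ligand on the surface of a cell binds a receptor on its neighbour. The receptor is then cut by an ADAM protease and by gamma-secretase, and its intracellular part enters the nucleus, where it joins RBPJ and a Mastermind protein and switches on repressors of the HES and HEY families. In the developing liver Jag1 and Notch2 direct hepatoblasts towards bile duct cells, and in vessels Dll4 and Notch4 act in endothelium and Notch3 in mural cells.

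The tumours grew as subcutaneous masses in CD1 nude ho mice from injected transformed hepatoblasts, which per the protocol carried TtRMPVIR shST18, a vector from which doxycycline switches on an shRNA against ST18. The doxycycline group holds 3 libraries with the genotype label ST18 knockdown, from mice given 200 mg/ml doxycycline in 300 µl of water by gavage and killed after 4 h. The untreated group holds 3 libraries with the genotype label wild type. As every treated tumour also carried the hairpin vector, effects of drug, gavage and hairpin cannot be told apart. Nude mice lack a thymus but keep vessels, stroma and myeloid cells, and as host and tumour are both mouse, their reads were not separated. Nothing states that each library came from its own animal; p-values may therefore measure only the spread between libraries.

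Totals were 12090309 to 15899374 counts in the doxycycline libraries and 13148155 to 16169043 in the untreated libraries. St18 had 34, 12 and 61 counts in doxycycline replicates 1, 2 and 3, against 12, 23 and 19 in untreated replicates 1, 2 and 3, and the groups overlapped: of the libraries labelled ST18 knockdown, doxycycline replicate 2 had the lowest share of its total in all 6 libraries and doxycycline replicates 1 and 3 the highest (log2 fold change 1.03, SE 0.55, edgeR quasi-likelihood adjusted p = 0.298). Without doxycycline replicate 2 it passed as higher (log2 fold change 1.45, adjusted p = 0.0386, with 13.9% of all genes called). The range over all alternatives was 0.0386 to 0.639. The hepatocyte marker Alb had at most 2 counts in any library and Ttr at most 1, while the summed hepatoblast and biliary markers lay at 195 to 292 CPM with doxycycline and 177 to 282 CPM untreated (CPM are counts scaled to TMM-adjusted library totals). The summed skeletal muscle markers (15 genes) lay at 408 to 2790 CPM with doxycycline and 76.4 to 218 CPM untreated, the fibroblast markers (10 genes) at 1767 to 1957 CPM with doxycycline and 1149 to 1275 CPM untreated, and the macrophage markers (12 genes) at 553 to 779 CPM with doxycycline and 419 to 516 CPM untreated. Of these lists 9, 3 and 3 genes were called higher and none lower, where 2.84% of all genes tested were called higher. Of 9 hepatoblast and biliary markers tested 0 were called, where 5.02% of all genes tested were called in either direction. Their log2 fold changes were positive for 5 and negative for 4. These shifts stand beside every result below, and their part in it was not tested.

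The promoter windows of the members were read from RefSeq (GRCm38.p6, 250 bases before to 50 after each start), which held 9 windows for the 8 receptors and ligands; Hes1 and Hey1 are not among them. The RBPJ core TGGGAA was in 0 of 9 windows on either strand, and 25.6% of all 32851 windows hold it. The N box CACNAG, a site that HES repressors bind, was in 5 of 9 windows (42.5% of all), and the E box CACGTG in 0 of 9 (7.15% of all); these motifs do not overlap each other in the windows shown. The 250 bases upstream are printed for the 3 windows that lie outside the annotated exons of their gene, with N boxes in capitals, 5′ to 3′ on the strand of the gene: Notch3 at chr17:32166891-32167140 (minus), Dll1 at chr17:15376933-15377182 (minus) and Dll4 at chr2:119325534-119325783 (plus). The 250 bases before the Jag2 start lie within its annotated exons and are 87.2% GC.
Notch3: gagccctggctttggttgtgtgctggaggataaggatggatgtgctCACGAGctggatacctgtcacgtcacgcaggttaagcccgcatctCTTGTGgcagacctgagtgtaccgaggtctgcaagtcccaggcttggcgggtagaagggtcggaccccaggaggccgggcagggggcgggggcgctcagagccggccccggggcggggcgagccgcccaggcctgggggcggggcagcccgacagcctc
Dll1: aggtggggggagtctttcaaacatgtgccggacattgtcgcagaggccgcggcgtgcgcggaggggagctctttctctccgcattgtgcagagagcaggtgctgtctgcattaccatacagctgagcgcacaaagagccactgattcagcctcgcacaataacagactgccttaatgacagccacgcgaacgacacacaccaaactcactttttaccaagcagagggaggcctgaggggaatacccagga
Dll4: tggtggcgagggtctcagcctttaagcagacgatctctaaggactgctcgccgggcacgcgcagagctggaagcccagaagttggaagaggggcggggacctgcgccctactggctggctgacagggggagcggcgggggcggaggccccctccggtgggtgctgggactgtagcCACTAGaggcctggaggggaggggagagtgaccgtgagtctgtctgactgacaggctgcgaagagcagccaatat
Notch3 holds 2 N boxes in this stretch, Dll4 holds 1 and Dll1 holds 0. The whole window of this Dll1 start holds 1 N box, outside the printed stretch. A match is a description of letters and not a bound site.

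Jag2 was the member that passed the test across all genes: it was lower after doxycycline. All 4 receptors, 3 of 4 ligands and both targets had negative log2 fold changes, as did 7236 of all 14809 genes tested. Among the members, Notch3 (-0.08), Notch4 (-0.02) and Hey1 (-0.03) were small and became positive with offsets for GC content and length. The median over the members was -0.237, against 0.00775 over all genes tested. With those offsets the medians were -0.187 and 0.00606. All 10 members passed the filter on low counts, and 1 of 10 was called lower and 0 higher at an adjusted p under 0.05 (3 at an unadjusted p under 0.05), where 2.18% of all genes tested were called lower, 2.84% higher and 5.02% in either direction. DESeq2 called 3 of 10 lower and 0 higher, with 11.3% of all genes called, and limma-voom 1 lower and 0 higher, with 3.56% called. The groups did not overlap for 3 of 10 members, all lower, while 14.4% of all genes tested were lower with no overlap and 29.6% did not overlap in either direction.

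**Figure D1:**
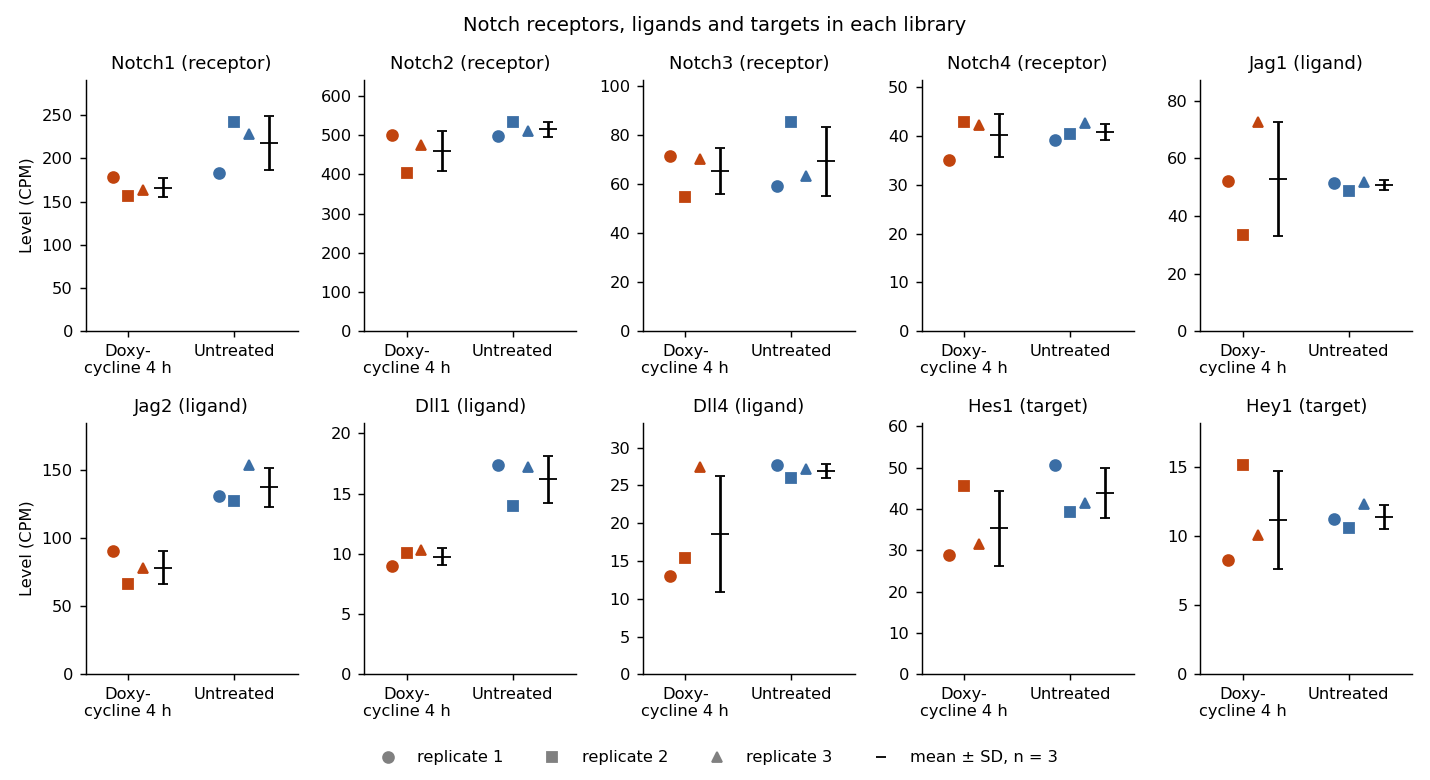
Level of each member in CPM (y axis, from 0, its own scale per panel) in the doxycycline libraries (left, red) and the untreated libraries (right, blue). Symbols mark replicates and bars the mean ± SD of 3 libraries; the Jag2, Dll1 and Notch1 groups do not overlap, and the doxycycline libraries of Jag1 and Dll4 spread more widely than the untreated ones.

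Among the ligands, Jag2, a Jagged ligand best known from limb and thymus development in mice, had 90.7, 66.1 and 78.0 CPM in doxycycline replicates 1, 2 and 3, against 131, 127 and 154 CPM in untreated replicates 1, 2 and 3. Every doxycycline library lay below every untreated library. The means were 78.3 ± 12.3 CPM with doxycycline and 137 ± 14.4 CPM in untreated tumours (SD, n = 3 each), a fold of 0.570. This is -0.81 on the log2 scale (SE 0.13, with a 95% interval of -1.11 to -0.51; adjusted p = 0.0177 by edgeR). In bulk tissue, fewer cells that make a transcript and less of it per cell cannot be told apart. The call was lost without untreated replicate 1 (-0.85, adjusted p = 0.0976), 2 (-0.88, adjusted p = 0.0633) or 3 (-0.72, adjusted p = 0.109) and without doxycycline replicate 3 (-0.81, adjusted p = 0.0576). Over all 15 alternatives the adjusted p ran from 1.83e-06 to 0.109. Calls were few for all genes without an untreated library: 11 to 27 higher and 12 to 25 lower, against 421 and 323 with all libraries. Jag2 transcripts are 61.9% GC, above 98.2% of the tested genes, and genes called lower had a median of 54.5% GC where all genes had 49.8%. Offsets for GC content and length put Jag2 at -0.59 (adjusted p = 0.0331, with 3.75% of all genes called).

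Dll1, a Delta ligand, was the least abundant ligand, at 8.96, 10.1 and 10.3 CPM in doxycycline replicates 1, 2 and 3 and 17.4, 13.9 and 17.2 CPM in untreated replicates 1, 2 and 3. The groups did not overlap, and all 3 doxycycline libraries sat within a narrow range. Dll1 averaged 9.78 ± 0.710 CPM with doxycycline and 16.2 ± 1.93 CPM in untreated tumours (SD, n = 3 each), with a log2 fold change of -0.72 (SE 0.20, 95% interval -1.18 to -0.27). It did not pass the threshold in edgeR (adjusted p = 0.0775), but did in DESeq2 (-0.73, adjusted p = 0.0138) and without doxycycline replicate 2 (-0.75, adjusted p = 0.0451, with 13.9% of all genes called); the range over all alternatives was 0.0138 to 0.308.

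Dll4, the Delta ligand of sprouting endothelium, differed among the doxycycline libraries. It had 12.98, 15.4 and 27.4 CPM in doxycycline replicates 1, 2 and 3, against 27.7, 25.9 and 27.2 CPM in untreated replicates 1, 2 and 3. Doxycycline replicate 3 lay within the untreated range and the other doxycycline libraries below it. The means were 18.6 ± 7.72 CPM with doxycycline and 26.9 ± 0.914 CPM in untreated tumours (SD, n = 3 each), and the log2 fold change of -0.53 (SE 0.27, 95% interval -1.14 to 0.08) did not pass (edgeR adjusted p = 0.274). Without doxycycline replicate 3 it was -0.93 (adjusted p = 0.0576), and the range over the alternatives was 0.0576 to 0.520. Dll4 shares 214 exonic bases with Gm14207 on the opposite strand, as Dll1, Notch1 and Notch3 also do with other genes, and no source used here says whether counting used strand, so such reads cannot be told apart. Notch2 shares 541 exonic bases with Gm42820 on its own strand. Of these overlapping genes, Gm14207 alone is in the count table.

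Jag1, the Jagged ligand of bile duct formation, had 52.1, 33.3 and 72.7 CPM in doxycycline replicates 1, 2 and 3, against 51.4, 48.6 and 51.9 CPM in untreated replicates 1, 2 and 3. The untreated libraries sat between the lowest and the highest doxycycline library. Means were 52.7 ± 19.7 CPM with doxycycline and 50.6 ± 1.77 CPM in untreated tumours (SD, n = 3 each), with a log2 fold change of 0.06 (95% interval -0.49 to 0.61, edgeR adjusted p = 0.910), a value whose sign changed with the setting. Whether Jag1 and Jag2 differed in their response was not tested.

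**Figure D2:**
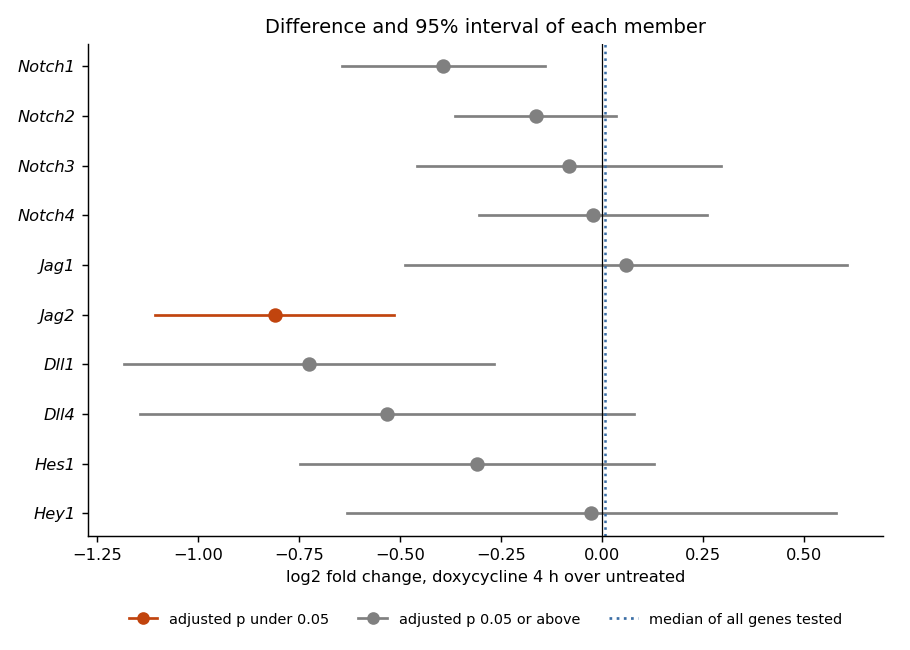
Log2 fold change of each member, doxycycline 4 h over untreated (points), with 95% intervals from the edgeR fit (lines). Jag2 (red, -0.81) is the member with an adjusted p under 0.05; the intervals of Notch1 and Dll1 also lie below 0, and the dotted line marks the median of all genes tested (0.00775).

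Among the receptors, Notch1 had 178, 156 and 164 CPM in doxycycline replicates 1, 2 and 3, against 183, 242 and 229 CPM in untreated replicates 1, 2 and 3. The groups did not overlap, but doxycycline replicate 1 and untreated replicate 1 lay close together. The means were 166 ± 11.3 CPM with doxycycline and 218 ± 31.1 CPM in untreated tumours (SD, n = 3 each), with a log2 fold change of -0.39 (SE 0.11, 95% interval -0.64 to -0.14). It did not pass in edgeR (adjusted p = 0.0807); it did in DESeq2 (-0.40, adjusted p = 0.0213) and with no filter on low counts (-0.40, adjusted p = 0.0479, with 4.01% of all genes called), over a range of 0.0213 to 0.288.

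Notch2, the receptor of the biliary lineage, was the most abundant member. It had 499, 402 and 475 CPM in doxycycline replicates 1, 2 and 3, against 499, 534 and 510 CPM in untreated replicates 1, 2 and 3. Doxycycline replicate 2 was the lowest library, and doxycycline replicate 1 reached the untreated range. The means were 459 ± 50.6 CPM with doxycycline and 514 ± 18.2 CPM in untreated tumours (SD, n = 3 each), with a log2 fold change of -0.16 (95% interval -0.36 to 0.04, edgeR adjusted p = 0.299). Notch2 also had the highest untreated count per exonic base of the members, 0.701, against 0.289 for Jag2 and 0.0559 for Dll1. The depth ratio between libraries was smaller for high counts: the deepest untreated library held 1.23 times the total of the shallowest, but the median ratio was 1.10 over the 84 genes above 1 count per base. No member lay above 1 count per base, and among the members the same ratio ran from 0.934 for Hes1 to 1.74 for Notch3, with 1.29 for Notch2; what depth did to the members' differences was not tested.

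Notch3, the mural cell receptor, had 71.3, 54.6 and 70.3 CPM in doxycycline replicates 1, 2 and 3, against 59.0, 85.4 and 63.0 CPM in untreated replicates 1, 2 and 3. The groups overlapped, and untreated replicate 2 was the highest library. Notch4, a receptor largely of endothelium, had 35.1, 42.9 and 42.3 CPM in doxycycline replicates 1, 2 and 3, against 39.2, 40.5 and 42.5 CPM in untreated replicates 1, 2 and 3. Notch3 was at a log2 fold change of -0.08 (95% interval -0.46 to 0.29, edgeR adjusted p = 0.812) and Notch4 at -0.02 (95% interval -0.30 to 0.26, adjusted p = 0.937). Both changed sign with the setting, becoming 0.096 for Notch3 and 0.19 for Notch4 with offsets for GC content and length. Their transcripts are 59.6% and 61.2% GC. Of the genes whose upstream windows are printed above, Dll1 had groups that did not overlap, while Notch3 and Dll4 had groups that did. Of all genes tested 29.6% had groups that did not overlap, and a link between windows and levels was not tested.

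The targets did not pass the test. Hes1, a repressor that Notch induces directly, had 28.8, 45.6 and 31.5 CPM in doxycycline replicates 1, 2 and 3, against 50.7, 39.4 and 41.4 CPM in untreated replicates 1, 2 and 3. Doxycycline replicates 1 and 3 lay below all untreated libraries and doxycycline replicate 2 within their range. Hes1 averaged 35.3 ± 9.05 CPM with doxycycline and 43.8 ± 6.03 CPM in untreated tumours (SD, n = 3 each; log2 fold change -0.31, 95% interval -0.75 to 0.13, edgeR adjusted p = 0.368). Without doxycycline replicate 2, the doxycycline library with the most Hes1, it was at -0.54 and passed (adjusted p = 0.0361, with 13.9% of all genes called). The range over the alternatives was 0.0361 to 0.726.

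Hey1, a related repressor prominent in vessels, had 8.29, 15.2 and 10.1 CPM in doxycycline replicates 1, 2 and 3, against 11.3, 10.6 and 12.3 CPM in untreated replicates 1, 2 and 3. Doxycycline replicate 2 was again the highest of its group, and here of all libraries. Hey1 averaged 11.2 ± 3.57 CPM with doxycycline and 11.4 ± 0.871 CPM in untreated tumours (SD, n = 3 each), with a log2 fold change of -0.03 (95% interval -0.63 to 0.58, edgeR adjusted p = 0.965) whose sign changed with the setting. Doxycycline replicate 2, the library with the most Hes1 and Hey1 of its group, had the least Jag1, Jag2, Notch1, Notch2 and Notch3 of its group, but the most Notch4 and middle levels of Dll1 and Dll4. It also had the largest summed muscle markers, 2785 CPM.

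Set against the summed CPM of the receptors, Hes1 came to 3.68%, 6.96% and 4.19% in doxycycline replicates 1, 2 and 3 and to 6.50%, 4.36% and 4.90% in untreated replicates 1, 2 and 3. The groups overlapped (exact two-sided permutation test of the log2 ratio, p = 0.7). Hey1 came to 1.06%, 2.31% and 1.34% in the doxycycline libraries and to 1.44%, 1.18% and 1.46% in the untreated libraries, again with overlap (exact permutation p = 0.9).

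Levels can be compared between genes only per length, here as CPM per kilobase of annotated exon. In the doxycycline libraries the order was Notch2 (42.6 ± 4.69), Hes1 (17.3 ± 4.44), Notch1 (11.7 ± 0.790), Jag2 (11.2 ± 1.77), Jag1 (9.04 ± 3.38), Notch3 (8.08 ± 1.16), Notch4 (4.97 ± 0.538), Dll4 (4.82 ± 2.003), Hey1 (3.43 ± 1.09) and Dll1 (2.32 ± 0.168 CPM per kb, SD, n = 3). In the untreated libraries it was Notch2 (47.7 ± 1.69), Hes1 (21.5 ± 2.96), Jag2 (19.7 ± 2.07), Notch1 (15.3 ± 2.19), Jag1 (8.69 ± 0.304), Notch3 (8.55 ± 1.76), Dll4 (6.995 ± 0.237), Notch4 (5.05 ± 0.209), Dll1 (3.83 ± 0.458) and Hey1 (3.49 ± 0.267 CPM per kb, SD, n = 3). Jag2 stood above Notch1 with no overlap in the untreated libraries, while their ranges overlapped in the doxycycline libraries. Neighbours whose ranges overlapped were Notch1 and Jag2, Jag2 and Jag1, Jag1 and Notch3, Notch4 and Dll4, and Dll4 and Hey1 with doxycycline, and Hes1 and Jag2, Jag1 and Notch3, and Dll1 and Hey1 in untreated tumours.

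Summed per length, the 4 ligands came to 27.5, 21.6 and 33.2 CPM per kb in doxycycline replicates 1, 2 and 3 and to 38.9, 36.6 and 42.1 CPM per kb in untreated replicates 1, 2 and 3. These sums did not overlap, but they include the called member Jag2, which averaged 11.2 CPM per kb with doxycycline and 19.7 CPM per kb untreated. Of all single genes tested 29.6% had groups that did not overlap. The 4 receptors came to 72.01, 60.4 and 69.5 CPM per kb in the doxycycline libraries and to 71.3, 82.2 and 76.4 CPM per kb in the untreated libraries, where doxycycline replicate 1 lay above untreated replicate 1. Jag2 made up 47.4%, 44.0% and 33.7% of the ligand sum in doxycycline replicates 1, 2 and 3, against 48.2%, 49.8% and 52.4% in untreated replicates 1, 2 and 3. The share of Jag1 was 32.6%, 26.5% and 37.6% with doxycycline and 22.7%, 22.8% and 21.2% without, so it was the larger in each doxycycline library. The ligand sum in this share includes Jag2 and was the smaller in each doxycycline library. The level of Jag1 itself overlapped, at 5.71 to 12.5 CPM per kb with doxycycline and 8.34 to 8.91 CPM per kb untreated. Notch2 made up 61.8% to 64.3% of the receptor sum with doxycycline and 60.3% to 64.9% in untreated tumours.

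**Figure D3:**
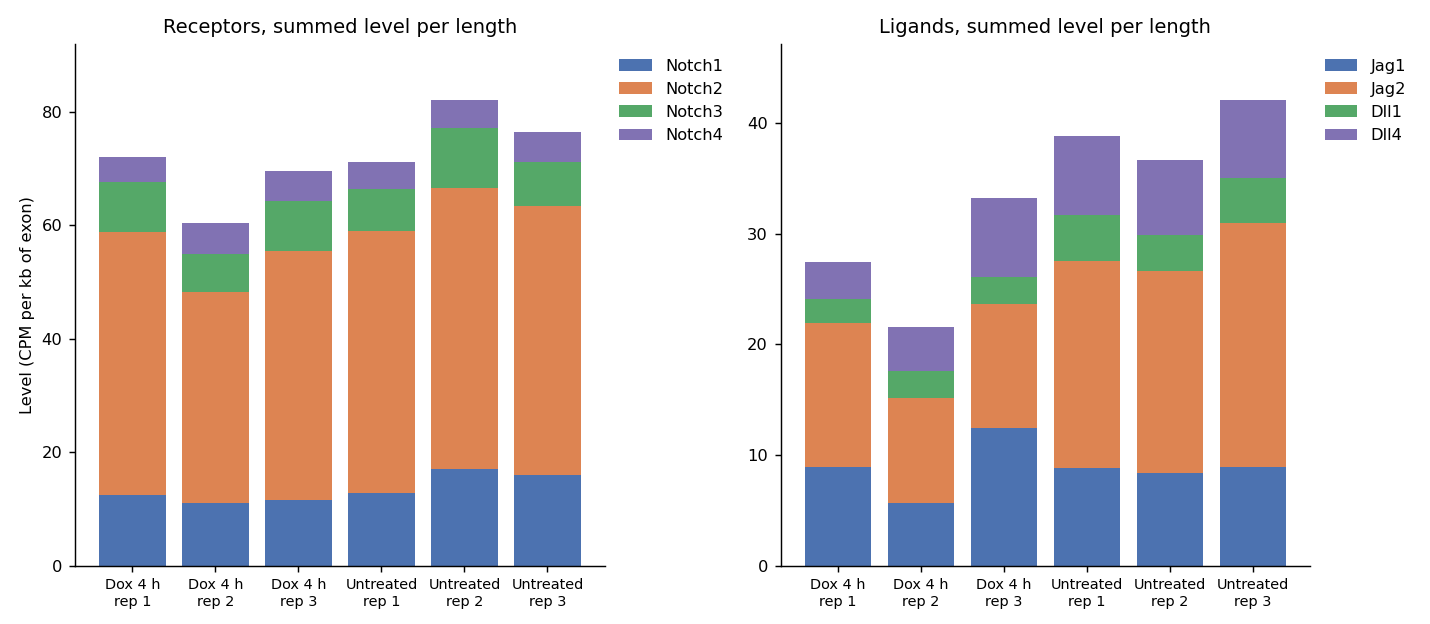
Summed level of the receptors (left) and ligands (right) in CPM per kilobase of exon (y axes, from 0), stacked by gene, in doxycycline replicates 1 to 3 and then untreated replicates 1 to 3. The ligand sums are 21.6 to 33.2 in the doxycycline libraries and 36.6 to 42.1 in the untreated libraries, while the receptor sums overlap.

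Dll4 and Notch4 are known mainly from endothelium and Notch3 from mural cells, and each was also set against markers of those cells. The summed 14 endothelial markers were at 568, 519 and 605 CPM in doxycycline replicates 1, 2 and 3 and at 459, 466 and 509 CPM in untreated replicates 1, 2 and 3, and of them Tek (log2 fold change 1.31, edgeR adjusted p = 0.0215) and Cdh5 (0.51, adjusted p = 0.0305) rose and none was called lower (2 of 14 called, where 5.02% of all genes tested were), with 10 log2 fold changes positive and 4 negative. Dll4 equalled 2.29%, 2.96% and 4.53% of that sum in doxycycline replicates 1, 2 and 3, against 6.05%, 5.57% and 5.33% in untreated replicates 1, 2 and 3. Every doxycycline library lay below every untreated library, including replicate 3, whose Dll4 CPM was within the untreated range. The difference in mean log2 ratio was -0.85 (exact two-sided permutation p = 0.1, the smallest that 3 against 3 libraries allow).

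Notch4 equalled 6.18%, 8.27% and 6.99% of the endothelial sum in doxycycline replicates 1, 2 and 3, against 8.55%, 8.68% and 8.35% in untreated replicates 1, 2 and 3. The groups did not overlap, with doxycycline replicate 2 close to the untreated libraries (difference in mean log2 ratio -0.27, exact permutation p = 0.1). The CPM of Notch4 itself overlapped between the groups (log2 fold change -0.02). The endothelial sum, the denominator, was the larger in each doxycycline library, at 519 to 605 CPM against 459 to 509 CPM untreated. With the geometric mean of the markers in place of their sum the exact permutation p was 0.3 for Notch4 and 0.1 for Dll4. The 11 mural markers summed to 687 to 723 CPM with doxycycline and 643 to 690 CPM untreated, and none passed the test (Acta2 was at a log2 fold change of 0.67, edgeR adjusted p = 0.0598). Their log2 fold changes were positive for 9 and negative for 2. Notch3 equalled 9.97%, 7.94% and 9.72% of that sum in the doxycycline libraries and 9.17%, 13.02% and 9.13% in the untreated libraries, with overlap (difference in mean log2 ratio -0.17, exact permutation p = 0.6). With the geometric mean, which gives each marker the same weight, the difference was -0.51 (exact permutation p = 0.1).

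**Figure D4:**
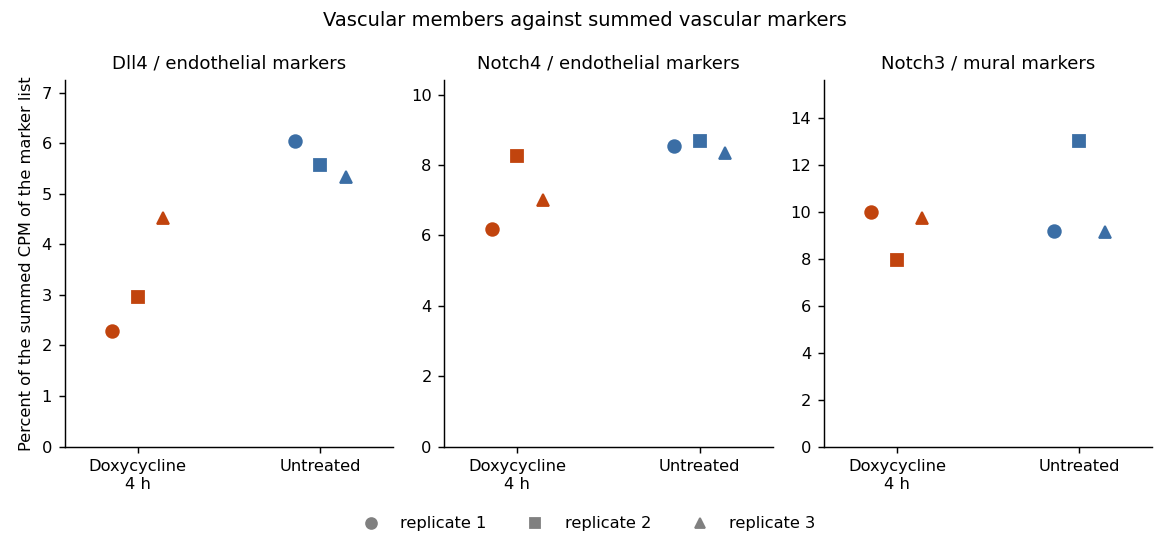
Dll4 and Notch4 as a percentage of the summed CPM of 14 endothelial markers, and Notch3 of 11 mural markers, in each doxycycline library (left, red) and untreated library (right, blue); y axes start at 0 and symbols mark replicates. Dll4 is at 2.29% to 4.53% with doxycycline and 5.33% to 6.05% untreated, and Notch3 overlaps.

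Few other pathway genes passed the test. Of 76 further pathway genes, listed by role, 67 were tested, of which 2 were called higher and 1 lower (4.48%, against 5.02% of all genes tested), and the median log2 fold change was -0.0098. The groups did not overlap for 24 of 67 (35.8%, against 29.6% of all genes tested), 12 in each direction. DESeq2 called 5 higher and 5 lower, with 11.3% of all genes called.

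Of 6 genes that traffic ligands in the sending cell, Mib2, a ubiquitin ligase that drives ligand endocytosis, fell. It had 66.3, 84.5 and 73.1 CPM in doxycycline replicates 1, 2 and 3, against 94.7, 113 and 109 CPM in untreated replicates 1, 2 and 3, with no overlap. Its log2 fold change was -0.50 (SE 0.12, edgeR adjusted p = 0.0470). The related ligase gene Mib1 was at 0.10 (adjusted p = 0.395) and the list median at -0.0966. The Mib2 call was lost without untreated replicates 1, 2 or 3 (adjusted p = 0.126, 0.157 and 0.218), without doxycycline replicates 1 or 3 (0.0867 and 0.124), and with offsets for GC content and length (-0.28, adjusted p = 0.223). The call was also lost with upper quartile scaling, a minimum of 10 counts in every library and limma-voom (adjusted p = 0.0568, 0.0522 and 0.0541). In all it was lost in 9 of 15 alternatives, over a range of 0.00403 to 0.223. Mib2 is 61.1% GC.

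Of 10 genes that cleave the receptor, Aph1b, a subunit of gamma-secretase, rose. It had 49.8, 61.2 and 42.3 CPM in doxycycline replicates 1, 2 and 3, against 32.9, 30.3 and 28.3 CPM in untreated replicates 1, 2 and 3, with no overlap. The log2 fold change was 0.75 (SE 0.16, edgeR adjusted p = 0.0357). Its close paralog Aph1c was at 0.84 (adjusted p = 0.129), and no source used here says how reads that match both were counted, so each value is uncertain. A further paralog, Aph1a, was at -0.34 (adjusted p = 0.0551), and the alpha-cleavage protease Adam10 at 0.31 (adjusted p = 0.0607). The Aph1b call was lost without untreated replicates 1, 2 or 3 (adjusted p = 0.133, 0.134 and 0.188), without doxycycline replicate 1 (0.0655), with offsets for GC content and length (0.64, adjusted p = 0.0532), with limma-voom (0.0526) and with the replicate block (0.0560; range over all alternatives 0.000982 to 0.188).

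Of 9 genes of the transcription complex, Maml2, a Mastermind coactivator, rose. It had 101, 89.4 and 98.9 CPM in doxycycline replicates 1, 2 and 3, against 50.2, 68.6 and 54.5 CPM in untreated replicates 1, 2 and 3, with no overlap. The log2 fold change was 0.74 (SE 0.13, edgeR adjusted p = 0.0230). The DNA-binding partner Rbpj was at -0.10 (adjusted p = 0.430), Maml1 at -0.20 (adjusted p = 0.398) and Maml3 at 0.0071 (adjusted p = 0.987). The Maml2 call was lost without untreated replicates 1 or 3 (adjusted p = 0.117 and 0.133) and without doxycycline replicates 1 or 3 (0.0523 and 0.0674; range over all alternatives 3.6e-05 to 0.133).

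**Figure D5:**
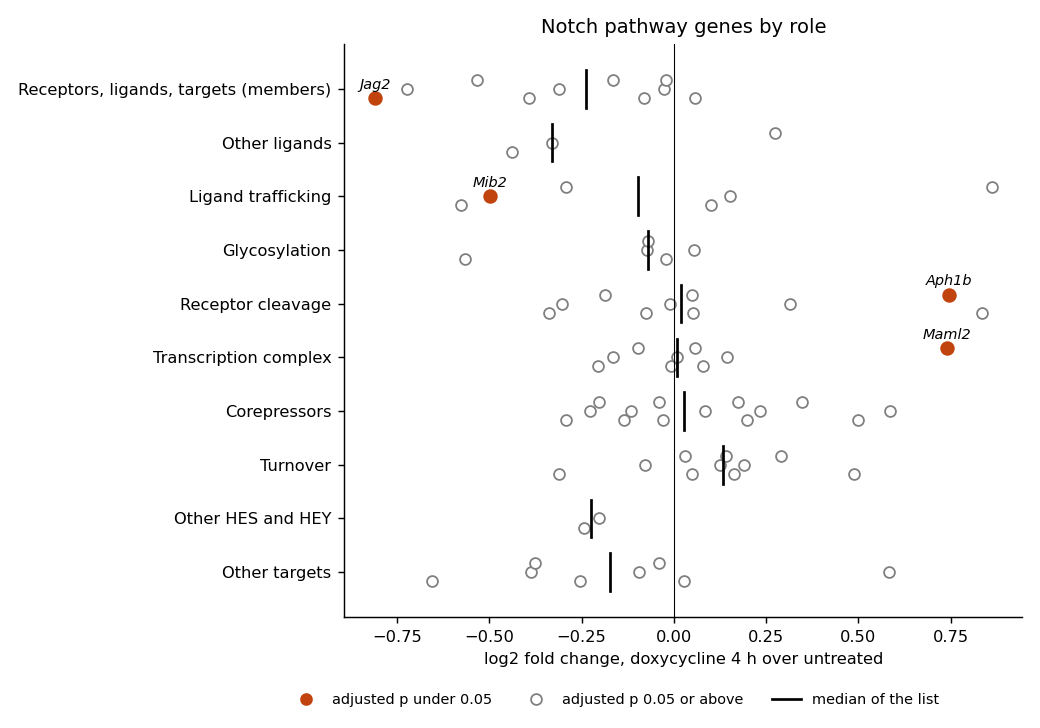
Log2 fold change, doxycycline 4 h over untreated (x axis), of the members and of the other pathway genes tested, by role; filled red points have an edgeR adjusted p under 0.05 and bars mark list medians. Jag2 and Mib2 lie below 0 and Aph1b and Maml2 above it among the called genes.

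No gene passed in the other lists. The gene with the smallest p of its own list is named for each: Egfl7, a secreted vessel protein (log2 fold change 0.28, edgeR adjusted p = 0.464), Rfng, a fringe enzyme that glycosylates the receptors (-0.57, adjusted p = 0.102), and Cir1, a corepressor that binds RBPJ (0.59, adjusted p = 0.0690). Dtx4, a Deltex ligase, was at 0.49 (adjusted p = 0.201), Hes6 at -0.24 (adjusted p = 0.353) and Cdkn1a, the cell cycle inhibitor, at -0.65 (adjusted p = 0.0830). The medians were -0.33 for 3 other ligands tested, -0.0705 for 5 glycosylation genes, 0.0267 for 14 corepressors, 0.13 for 10 turnover genes, -0.22 for 2 other HES and HEY genes and -0.17 for 8 other targets. The target Nrarp, a feedback inhibitor of Notch, was at -0.25 (adjusted p = 0.447) and Heyl, a mural target, at -0.20 (adjusted p = 0.561).

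Several pathway genes were too low to test. Dll3, Dner, Dtx1, Hes2, Hes3, Hes5, Hes7, Hey2 and Helt had at most 16 counts in any library. Hes5, a target best known from neural progenitors, had 1 count over the doxycycline libraries and 3 over the untreated libraries, and Hey2 had 16 over the doxycycline libraries and 24 over the untreated libraries.

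By profile over the 6 libraries, each gene centred and scaled by its own SD, the tested genes nearest to Jag2 were Prr7, Hsph1 and Nat10, at root mean square differences of 0.0517, 0.0819 and 0.108 SD. Prr7 was at a log2 fold change of -1.02 (edgeR adjusted p = 0.0835). The chaperone gene Hsph1 was at -0.44 (adjusted p = 0.0395), and Nat10, an RNA acetyltransferase gene, at -0.50 (adjusted p = 0.0208). These genes were picked as the nearest to a called member, so their lower levels with doxycycline follow from that choice. How small such distances become by chance among all genes tested was not tested.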

How the data were processed

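The authors deposited raw read counts by gene symbol for 6 libraries. Per the submitters' processing notes the authors used TopHat2 2.0.8, TopHat and HTSeq with build mm9; no source used here gives strand use, multiply mapped reads or duplicate removal. The 90 rows with no gene name held 0.0361% to 0.0402% of the counts and were left out. Differences were tested in R 4.3.3 with edgeR 4.0.16 (filterByExpr, TMM, robust glmQLFit and glmQLFTest, two-sided, Benjamini-Hochberg over 14809 genes, threshold 0.05); intervals are 95%. A positive log2 fold change means higher with doxycycline. The script was tested on simulated data. DESeq2 1.42.0, limma-voom 3.58.1, other scalings and filters, offsets for GC content and length, a replicate block and leaving out each library were alternatives. Exonic length and GC content came from GENCODE M21, another build than mm9, and were found for 99% of genes. Lengths set the levels per kilobase and, with GC content, the offsets of that alternative. They do not enter the main fit. Replicates differed by more than counting noise (chi-square over its degrees of freedom, 5.34 to 32.0).

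The members and lists were chosen with earlier results of these data known. Named genes are St18, the members, pathway genes past the threshold or else the smallest p of each list, and up to 3 markers a list. Mib1, Rbpj, Maml1, Maml3, Aph1a, Aph1c, Adam10, Nrarp, Heyl, Hes5, Hey2, Alb and Ttr were named after their values were seen, and the printed windows were picked then too.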

Additional observations from a re-analysis of the deposited data

How the results depend on the processing

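Jag2 was called lower under each of the 9 alternatives that kept all libraries, and its log2 fold change lay between -0.93 and -0.59 over all 15. The count of members called lower was 2 with no filter on low counts and 3 with DESeq2, where 4.01% and 11.3% of all genes were called. Of other pathway genes, DESeq2 called 5 higher and 5 lower and limma-voom 1 and 0; none was called lower with upper quartile scaling, with at least 10 counts in every library or with offsets for GC content and length (0 each). Over all genes DESeq2 called 887 higher and 782 lower (11.3% in either direction), and limma-voom 251 higher and 276 lower (3.56%).

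Leaving out 1 library gave 11 to 1244 genes called higher and 12 to 866 lower. It gave 0 to 3 members lower, 0 to 9 other pathway genes higher and 0 to 4 lower. Each count was largest without doxycycline replicate 2, and the fewest genes were called without an untreated library. St18 ranged from 0.58 to 1.45. Signs changed for Notch4 (0.012 with upper quartile scaling, 0.19 with GC and length offsets, -0.075 to 0.062 leaving out a library), Hey1 (0.0087 and 0.049, -0.31 to 0.14), Notch3 (0.096 with offsets, -0.19 to 0.081) and Jag1 (-0.00095 with limma-voom, -0.25 to 0.30). The log2 ratio of Notch3 to mural markers was -0.51 with the geometric mean. The causes were not tested.

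Correlations of the deviations of same-numbered libraries were -0.00976, -0.0747 and 0.0155, and those of unlike-numbered libraries ran from -0.143 to 0.136. With 3 libraries a group, such values cannot show whether the libraries were paired. With the replicate block 215 genes were called higher and 179 lower, with 1 and 2 other pathway genes, Jag2 was still called, and Jag1 was at -0.0093.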
